A study of Aedes aegypti with 8 samples.

Results

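Glutathione transferases are enzymes that join the tripeptide glutathione to reactive or foreign compounds. The 10 genes described here are GSTX2 (AAEL010500), 7 genes of the epsilon class (AAEL007946, AAEL007947, AAEL007948, AAEL007951, AAEL007954, AAEL007962 and AAEL007964), a gene of the sigma class (AAEL011741) and a gene of the delta class (AAEL001061). They were chosen by identifier, for their link to the handling of heme and oxidative stress, out of 19712 identifiers in the count table, and all 10 were present in it. Midguts were dissected from female Aedes aegypti of 3 to 5 days, sugar-fed and of the Liverpool strain per the study's methods. They were held ex vivo for 35 h at 28 °C in serum-free Schneider's Drosophila medium with penicillin-streptomycin and L-glutamine, to which either no heme (0 µM) or 10 µM heme was added. PolyA RNA was sequenced from 4 biological replicates of each treatment, each a pool of midguts. Both treatments shared the basal medium and the time in culture, and whether the 0 µM medium held the solvent of heme is not stated in the sources used. Markers of the midgut were not examined.

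The mosquito midgut digests hemoglobin after a blood meal and so sets heme free, and free heme promotes the formation of reactive oxygen species and the oxidation of lipids. Glutathione transferases meet the products of such oxidation by conjugating them, and some also bind heme without turning it over. GSTX2 is described as such a heme-binding member. In Drosophila melanogaster, the sigma-class enzyme acts on 4-hydroxynonenal, a product of lipid peroxidation. The delta and epsilon classes are the insect classes best known for their part in insecticide resistance.

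Total counts per library ranged from 46027977 to 56947544. In the study's multidimensional scaling plot, which places like libraries close together, 0 µM heme replicate 1 and 10 µM heme replicate 2 lay away from their groups. A run of 26 identifiers, AAEL018664 to AAEL018689, took 6.69%, 1.69% and 3.03% of counts in 10 µM heme replicates 1, 3 and 4, against 0.0946% to 0.190% in the other 5 libraries. Levels are given in CPM, which relates a count to the library total after scaling by the trimmed mean of M-values (TMM). A fold change is on the log2 scale and positive where the level with heme was higher, and a gene was called at an adjusted p under 0.05.

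Of the 10 genes, 6 had enough counts to be tested, and 2 of these rose with heme. They were GSTX2 and the sigma gene, which rose by nearly the same factor, 2.56 and 2.57 as ratios of group means. The delta gene and 3 epsilon genes were tested and not called, and the remaining 4 epsilon genes had almost no counts in either treatment. Over all 11095 genes tested, 4.63% were called in either direction by edgeR's exact test, and 2.22% were called higher with heme. The median log2 fold change was 0.35 over the 6 tested members and 0.02 over all genes tested. The median of the members lies between the values of AAEL007946 (0.44) and AAEL007947 (0.26), which were not called. It therefore shows no shift of the family as a whole.

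GSTX2 had 834, 1370, 1260 and 1703 counts in 0 µM heme replicates 1 to 4, and 2370, 3940, 2659 and 4092 counts in the 10 µM heme replicates. Scaled to depth, this was 18.4, 23.8, 23.2 and 30.0 CPM without heme, and 52.15, 70.15, 54.8 and 67.2 CPM with heme. Every library with heme lay above every library without it, and the lowest with heme was 1.74 times the highest without. The group means were 23.8 ± 4.74 CPM (SD, n = 4) and 61.1 ± 8.92 CPM (SD, n = 4). On the log2 scale GSTX2 rose by 1.36 ± 0.18 (SE over 4 libraries per treatment, adjusted p = 3.61e-11 in the edgeR exact test). The quasi-likelihood test of edgeR, which called fewer genes here, also called it (adjusted p = 0.00516), as it did 1.32% of all genes as higher. Because midguts were sequenced as bulk tissue, more cells that express a gene and more RNA per cell cannot be told apart.

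The sigma gene AAEL011741 had 8002 to 11618 counts without heme and 18512 to 30414 counts with heme. Its level was 176.8, 171.6, 182.3 and 204.5 CPM in 0 µM heme replicates 1 to 4, and 407.4, 541.5, 448.4 and 488.3 CPM in the 10 µM heme replicates. Again the treatments did not overlap, and the lowest library with heme was 1.99 times the highest without. The group means were 183.8 ± 14.5 CPM (SD, n = 4) and 471.4 ± 57.25 CPM (SD, n = 4). On the log2 scale it rose by 1.36 ± 0.10 (SE over 4 libraries per treatment, adjusted p = 4.74e-13 in the edgeR exact test), and it was called by the quasi-likelihood test as well (adjusted p = 0.00214). Of the 11095 genes tested, 6 had a smaller exact test p-value than the sigma gene, and 2 had a smaller p by quasi-likelihood.

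**Figure D1:**
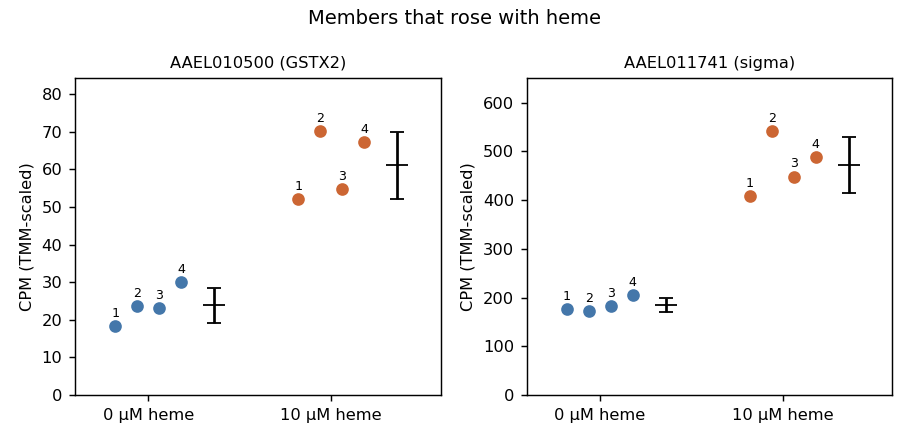
CPM of GSTX2 (left) and the sigma gene AAEL011741 (right) in each library, with replicate numbers beside the points and the mean ± SD of 4 libraries in black. The 4 libraries with 10 µM heme sit between 52.15 and 70.15 CPM for GSTX2 and between 407.4 and 541.5 CPM for the sigma gene, above all libraries with 0 µM heme.

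Of all genes tested, 0.838% were called higher with a change of over 2-fold, and GSTX2 and the sigma gene were both among them. In order of fold change the sigma gene was at place 81 and GSTX2 at place 82 of 11095. The treatments did not overlap in 2 of the 6 tested members, and in 10.2% of all genes tested.

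**Figure D2:**
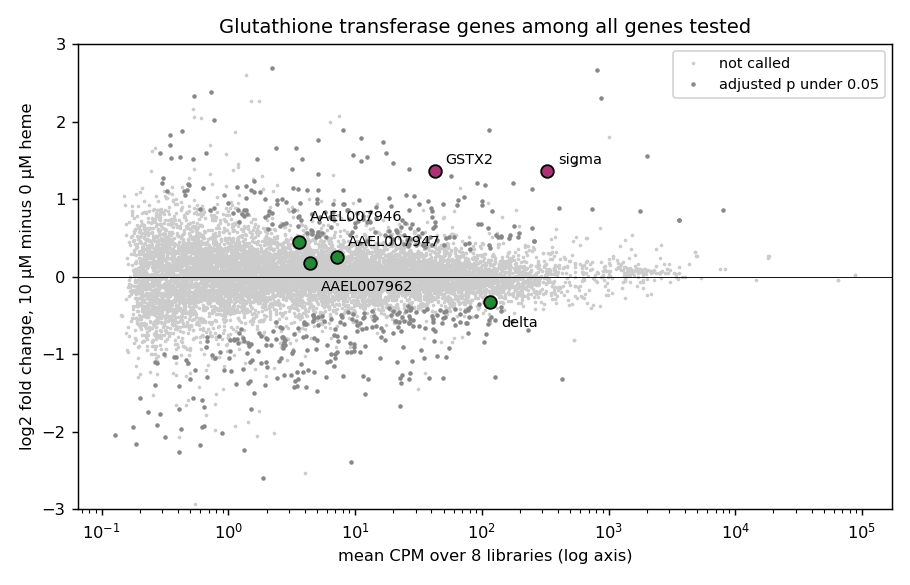
Log2 fold change (10 µM minus 0 µM heme) against mean CPM over 8 libraries (log axis) for the genes tested, with the 6 tested glutathione transferase genes as large points, called ones in purple and others in green. GSTX2 and the sigma gene lie at 1.36, while the other 4 lie between -0.33 and 0.44, and 32 genes beyond the axis limits of 3 and -3 are not drawn.

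The levels of GSTX2 and the sigma gene also followed each other from library to library. For each count of the sigma gene there were 0.129 ± 0.0184 counts of GSTX2 without heme (SD, n = 4) and 0.129 ± 0.00635 with heme (SD, n = 4). The ratio was 0.104 to 0.147 in the 0 µM libraries and 0.122 to 0.138 in the 10 µM libraries, so that the treatments overlapped. Such a ratio compares 1 pair of genes within a library and is free of scaling, but it is not a ratio of transcript numbers, since gene lengths were not used. Across the 8 libraries, log2 CPM of the 2 genes correlated at r = 0.98 (Pearson) and rho = 0.93 (Spearman). This correlation rests largely on the treatments that the libraries share. With the group means removed it was 0.80, and 5.68% of the other tested genes then had a higher correlation with GSTX2. In both genes replicate 2 was the highest and replicate 1 the lowest of the heme libraries, and replicate 4 the highest of those without heme. The lowest without heme differed, as it was replicate 1 for GSTX2 and replicate 2 for the sigma gene.

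**Figure D3:**
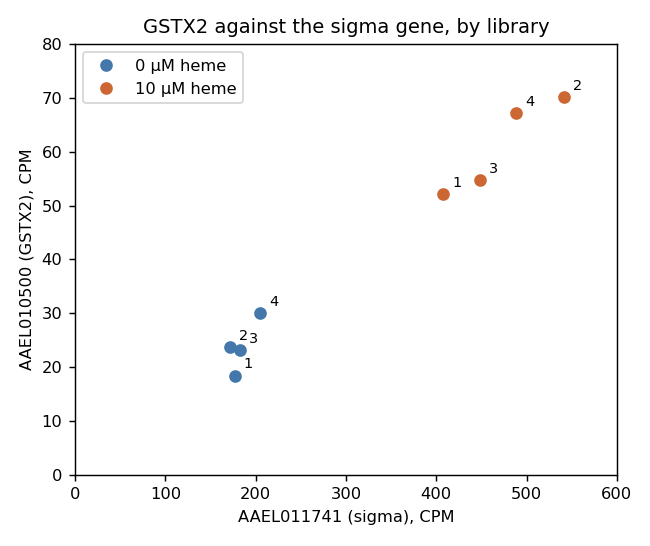
CPM of GSTX2 against CPM of the sigma gene AAEL011741 in each library, with replicate numbers beside the points and the treatments in 2 colours. The 8 libraries form separate groups by treatment, and in both treatments the ratio of counts was near 0.129.

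The rise of both genes was present in each heme library on its own. Relative to the mean log2 CPM of the 0 µM libraries, GSTX2 was higher by 1.15, 1.58, 1.22 and 1.52 in 10 µM heme replicates 1 to 4. The sigma gene was higher by 1.15, 1.56, 1.29 and 1.41. Replicate 2, the heme library that lay away from its group in the study's plot, thus had the highest value for both genes. It was also the only heme library without the raised run of 26 identifiers. Without this library and 0 µM heme replicate 1, the log2 fold change was 1.17 for GSTX2 (edgeR exact test, adjusted p = 2.93e-08) and 1.26 for the sigma gene (adjusted p = 2.21e-12).

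By the same measure of likeness, Pearson correlation of log2 CPM over the 8 libraries, 4 of the 11094 other tested genes were nearer to GSTX2 than the sigma gene was. The nearest were AAEL000759 (r = 0.99) and AAEL009124 (r = 0.99), for which the table gives no names. AAEL000759 had 250.1 to 314.0 CPM without heme and 429.1 to 601.0 CPM with heme, and rose by 0.89 (log2; edgeR exact test, adjusted p = 1.37e-04). AAEL009124 had 34.8 to 59.2 CPM without heme and 119.0 to 228.1 CPM with heme, and rose by 1.89 (log2; edgeR exact test, adjusted p = 1.26e-10). These correlations are descriptions over libraries that share their treatments. Since GSTX2 separated by treatment, genes picked for following it in these libraries were bound to rise with heme. Their fold changes and p-values are therefore no separate result.

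The delta gene AAEL001061 did not rise. Its level was 148.3, 138.1, 119.8 and 110.9 CPM in 0 µM heme replicates 1 to 4, and 117.0, 112.5, 86.0 and 97.05 CPM in the 10 µM heme replicates. The treatments overlapped, as 10 µM heme replicates 1 and 2 lay above 0 µM heme replicate 4. The group means were 129.3 ± 17.0 CPM (SD, n = 4) and 103.1 ± 14.3 CPM (SD, n = 4). Its log2 fold change was -0.33 ± 0.14 (SE over 4 libraries per treatment, edgeR exact test, p = 0.0345, adjusted p = 0.302), which did not pass over all genes tested. Of the 18 alternatives, 1 called it lower, the quasi-likelihood test with a replicate block (adjusted p = 0.0359).

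Set against the delta gene within each library, both rising genes stood higher with heme. The count ratio of GSTX2 to the delta gene was 0.124 to 0.270 in the 0 µM libraries and 0.446 to 0.692 in the 10 µM libraries. For the sigma gene it was 1.19 to 1.84 without heme and 3.48 to 5.215 with heme. Neither range overlapped between treatments, and neither depends on how libraries were scaled. The group mean of the delta gene was itself lower with heme (103.1 against 129.3 CPM), which widens both ratios. Both rising genes had already separated by treatment in CPM.

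Of the 7 epsilon genes, 3 were tested and 0 were called, and 0 of the 3 had an unadjusted p under 0.05 in the exact test. DESeq2, limma-voom and the quasi-likelihood test also called 0 of the 3. AAEL007946 had 4.40, 2.65, 2.13 and 3.03 CPM in 0 µM heme replicates 1 to 4 and 5.545, 3.83, 4.49 and 2.69 CPM in the 10 µM heme replicates. Its log2 fold change was 0.44 ± 0.31 (SE over 4 libraries per treatment, adjusted p = 0.600 in the edgeR exact test). AAEL007947 had 7.78, 6.31, 6.23 and 5.79 CPM without heme and 11.7, 5.95, 8.55 and 5.06 CPM with heme. Its fold change was 0.26 ± 0.28 (log2, SE; edgeR exact test, adjusted p = 0.844). AAEL007962 had 7.27, 3.16, 2.70 and 3.33 CPM without heme and 6.36, 4.88, 4.57 and 2.82 CPM with heme. Its fold change was 0.18 ± 0.40 (log2, SE; edgeR exact test, adjusted p = 0.958). The treatments overlapped in all 3 genes, and without 10 µM heme replicate 1 the fold changes of AAEL007947 and AAEL007962 were -0.015 and -0.020. Leaving out each library in turn gave 0.25 to 0.66 for AAEL007946, the lowest without 10 µM heme replicate 1 and the highest without 0 µM heme replicate 1.

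The 3 tested epsilon genes were highest and lowest in other libraries than GSTX2. Each was highest in replicate 1 of both treatments, the libraries in which GSTX2 was lowest, and each was lowest in replicate 4 of the heme libraries. With the group means removed, log2 CPM of the 3 genes correlated at 0.71 to 0.95 among themselves over the 8 libraries, and at -0.77 to -0.61 with GSTX2. How many of all tested genes reach such correlations was not counted. The delta gene was also highest in replicate 1 of both treatments, as were AAEL002309 and AAEL019937 from outside the family. Across all genes tested, deviations of the same-numbered libraries from their group means correlated at 0.52 for replicate 1. For replicates 2 to 4 this was 0.07, 0.06 and 0.16, so the replicate 1 pattern is not particular to these genes. The numbers 1 to 4 are not known to mark a shared batch. The coefficient of variation among replicates was 13.2% to 51.5% for the 3 epsilon genes, against 19.9% and 14.6% for GSTX2 and 7.87% and 12.2% for the sigma gene at 0 and 10 µM heme. Over all genes tested, the median was 16.7% and 16.5%.

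**Figure D4:**
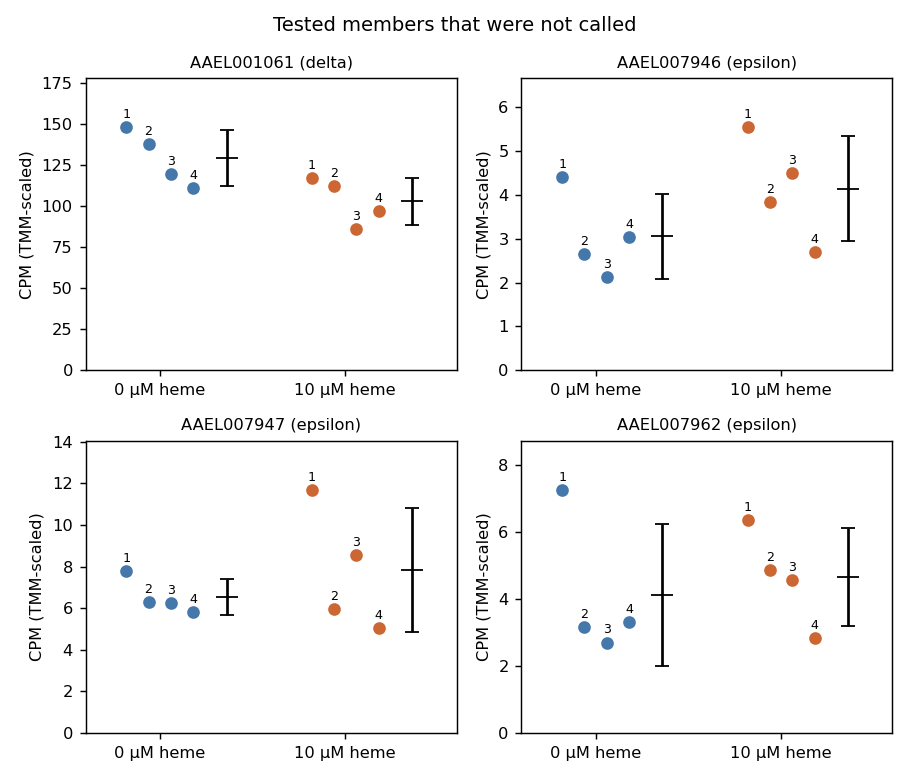
CPM of the delta gene AAEL001061 and the 3 tested epsilon genes in each library, with replicate numbers beside the points and the mean ± SD of 4 libraries in black. The treatments overlap in every panel, and replicate 1 is the highest of its treatment in each.

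The other 4 epsilon genes were near the limit of detection in both treatments. AAEL007948 had 4 counts in 0 µM heme replicate 2 and 1 count in 10 µM heme replicate 2. AAEL007951 had 1 count in 10 µM heme replicate 4, AAEL007954 had 1 count in 10 µM heme replicate 1, and AAEL007964 had 1 count in 0 µM heme replicate 4. The other 27 of 32 values were 0, which at these depths allows up to 0.0493 to 0.0663 CPM (3 counts per library, counting error only). No fold change is given for these genes, and a change below this limit was not detectable at this depth. None of the 6 tested members had counts that agreed within 2% with those of another identifier in all 8 libraries (0 identifiers for each).

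The identifiers numbered among and next to the epsilon genes, AAEL007945 to AAEL007965, held 6 that are not members. Of these, 3 were tested and 0 were called, with 0 at an unadjusted p under 0.05 in the exact test and 0 called by DESeq2, limma-voom or the quasi-likelihood test without a replicate block. AAEL007945, named by the study as a subunit of a translation initiation factor, had a log2 fold change of -0.01 ± 0.08 (SE over 4 libraries per treatment), and AAEL007959 had one of 0.11 ± 0.12 (log2, SE). AAEL007963 had 3.29 ± 2.43 CPM (SD, n = 4) without heme and 5.74 ± 2.12 CPM (SD, n = 4) with heme, a log2 fold change of 0.80 ± 0.58 (SE; edgeR exact test, adjusted p = 0.530). Its value at 0 µM turned on replicate 2 (6.64 CPM, against 1.34 to 3.52 in the other 3), and without that library it was called (log2 fold change 1.40, adjusted p = 0.0246).

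To set the family beside other genes of detoxification and redox balance, 21 genes were taken by name from the study's supplementary annotation. That annotation covered the cultured cells and was read in shortened form, so the list is partial. Of the 21 genes, 20 were tested, and 1 was lower with heme and 0 were higher. Among all genes tested, 2.42% were lower and 2.22% higher. The median log2 fold change of the 20 genes was -0.01. The gene that fell was CYP307A1 (AAEL009762). It is on the list as a cytochrome P450, but its Drosophila counterpart acts in the synthesis of the molting hormone ecdysone. It had 10.65, 6.76, 11.1 and 8.83 CPM in 0 µM heme replicates 1 to 4 and 4.58, 5.43, 5.17 and 2.81 CPM in the 10 µM heme replicates. The treatments did not overlap, and CYP307A1 fell by 1.05 ± 0.27 on the log2 scale (SE over 4 libraries per treatment, adjusted p = 0.00126 in the edgeR exact test). In the quasi-likelihood test it passed narrowly (adjusted p = 0.0427). The other 7 cytochrome P450 genes of the list, a family of oxidizing enzymes, had log2 fold changes of -0.36 to 0.83 and were not called. The value of 0.83 (SE 0.36) came from a gene with few counts, at 0.22 CPM without heme and 0.40 CPM with heme.

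Among the redox genes of the list, the thioredoxin peroxidase TPX4 (AAEL002309), which reduces peroxides, had 677.7 ± 303.4 CPM (SD, n = 4) without heme and 385.2 ± 145.5 CPM (SD, n = 4) with heme. Its log2 fold change of -0.82 ± 0.43 (SE; edgeR exact test, adjusted p = 0.267) was not called, and its highest value, 1118 CPM, was in 0 µM heme replicate 1. The Cu-Zn superoxide dismutase AAEL019937, which converts superoxide to hydrogen peroxide, had 46.0 ± 11.7 CPM (SD, n = 4) without heme and 61.7 ± 13.6 CPM (SD, n = 4) with heme. It was not called with all libraries (log2 fold change 0.42 ± 0.23, SE; edgeR exact test, adjusted p = 0.372), but it was called without 0 µM heme replicate 1 (0.61, adjusted p = 0.0368). The glutaredoxin AAEL013980, an enzyme that uses glutathione to reduce disulfides, had 85.7 ± 6.58 CPM (SD, n = 4) without heme and 75.95 ± 5.32 CPM (SD, n = 4) with heme, and was not called (log2 fold change -0.17 ± 0.07, SE; adjusted p = 0.642). CYP9J2 (AAEL006805), with 44.5 ± 1.06 CPM (SD, n = 4) and 47.7 ± 7.47 CPM (SD, n = 4), was not called either.

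**Figure D5:**
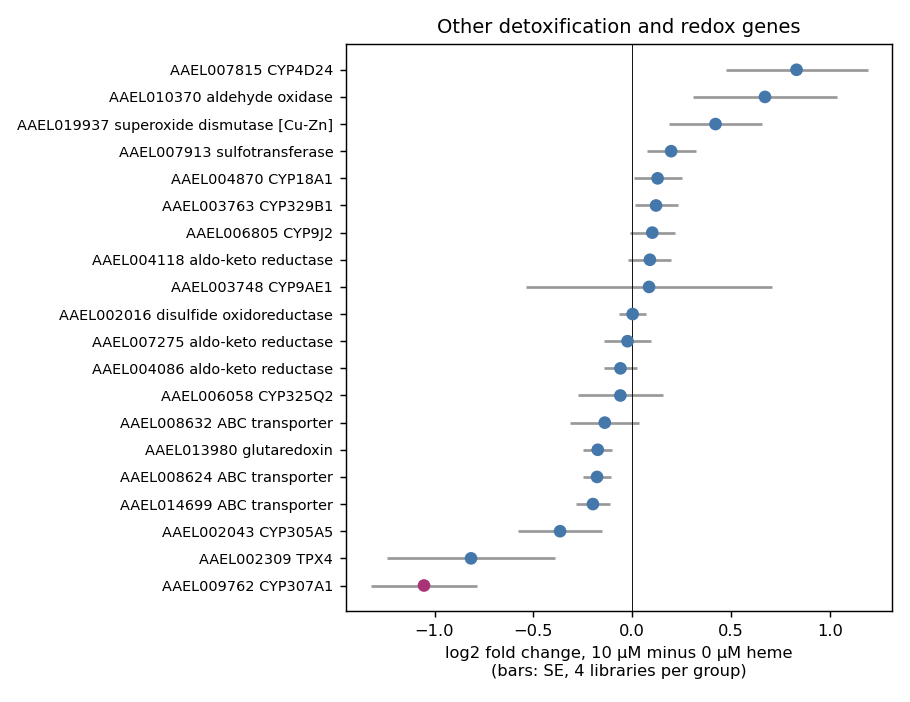
Log2 fold change (10 µM minus 0 µM heme) with its SE over 4 libraries per treatment for the 20 tested genes of the detoxification and redox list. CYP307A1, in purple, was the one called gene, at -1.05, and the others lie between -0.82 and 0.83.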

How the data were processed

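The authors aligned single-end reads to the AaegL5 genome with HISAT2 2.1.0, dropped alignments of low mapping quality with SAMtools, and counted reads per transcript with BEDtools 2.19.1. They deposited raw counts per identifier, not normalized. How strand, spliced reads and reads shared by several transcripts were treated is not stated in the sources used. Groups and replicate numbers came from the sample labels.

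The whole table was fitted with edgeR 4.0.16 (R 4.3.3), following the exact test named in the study's methods, with filterByExpr defaults (11095 of 19712 identifiers kept), TMM scaling and two-sided p-values adjusted by Benjamini-Hochberg. Each SE was computed from log2 CPM (prior count 2) as the error of a difference of 2 means. Fits were tested on simulated data. Alternatives were the quasi-likelihood test with and without a replicate block, DESeq2 1.42.0, voom of limma 3.58.1 weighted by library quality, other scalings and filters, and leaving out libraries or the run of 26 identifiers.

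The genes named were all 10 members; of each other list, called genes (up to 6) and the uncalled ones with the highest mean CPM (up to 4); and the pair of genes most like GSTX2 by correlation. The members and lists were chosen with earlier results of these data known. No identifier matched the RefSeq table of AaegL5.0 (0 matches), so no positions or lengths are given. Where levels of different genes were set side by side, as in the count ratios, they were not corrected for length. Counting error at the lowest count was 3.46% for GSTX2 and 9.29% for AAEL007946.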

Additional observations from a re-analysis of the deposited data

Results flagged for a closer look

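In 12 groups of 4 values (6 tested genes in each treatment), 1 had a library whose gap to the next took more of the range than Dixon's 95% critical value, and chance flags about 1 in 20 such groups. AAEL007962, an epsilon gene, had 7.27 CPM in 0 µM heme replicate 1, against 2.70 to 3.33 CPM in the other 0 µM libraries. The gap took 0.863 of the range, and without this library the log2 fold change of AAEL007962 was 0.60 (edgeR exact test, adjusted p = 0.244). The part of the library in this value was not tested further.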

How the results depend on the processing

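Under all 18 alternatives GSTX2 and the sigma gene stayed called and higher with heme, with log2 fold changes of 1.17 to 1.49 and 1.26 to 1.41 and highest adjusted p-values of 0.00516 and 0.00214. Leaving out each library gave 1.25 to 1.49 and 1.27 to 1.41, and in those fits 2 members were called each time. The delta gene stayed negative (-0.42 to -0.25) under all 18 alternatives. The uncalled fold changes of AAEL007947 and AAEL007962 ranged from -0.015 to 0.42 and from -0.020 to 0.60 over the same fits, and were negative in the fit without 10 µM heme replicate 1 alone. The quasi-likelihood test called 316 genes in all, against 514 by the exact test. Leaving out each library gave 333 to 549 genes in all. Of these, 1 to 2 were on the detoxification and redox list and 0 to 1 were identifiers among the epsilon genes. Without TMM, on plain library totals, 442 genes passed (142 of them higher), among them the same 2 members. This moved the median log2 fold change of all genes from 0.02 to -0.07.

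The numbers of the replicates were not treated as pairs. Deviations of same-numbered libraries correlated across genes, which are not independent replicates, at 0.52, 0.07, 0.06 and 0.16 for replicates 1 to 4. The quasi-likelihood test with a replicate block gave 725 genes and 3 members, adding the delta gene (log2 fold change -0.33, adjusted p = 0.0359). It then called 2 genes of the detoxification and redox list, adding TPX4 (AAEL002309, -0.81, adjusted p = 0.0359). It also called 1 of the identifiers among the epsilon genes, AAEL007963 (0.98, adjusted p = 0.0322). The 4 untested epsilon genes had almost no counts, and the reason for this was not tested. The cause of the differences between fits was not tested either.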
